A study of Oryza sativa with 21 samples.

Results

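Leaves of rice lines that overexpress NRP1 were compared directly with leaves of lines in which the same gene had been targeted with CRISPR/Cas9, without reference to the wild type. The comparison used 18 of the 21 libraries of the series, 9 of each genotype. The overexpression (OE) genotype was represented by OE-2, OE-3 and OE-4. Lines of the CRISPR genotype were C-13, C-14 and C-16. Each line had 3 libraries, and line values are given in that order throughout. All plants were Oryza sativa grown in the field, and the second leaf from the top was collected in the morning at early heading. The labels describe the genotypes as over-expression of NRP and as a CRISPR/Cas9 knockout of NRP, and name no other treatment. The promoter of the transgene, the edited sequence and the independence of the lines as transformation events are not given in the labels. The labels do not say that the 3 libraries of a line came from separate plants. With no wild type in the comparison, a gene that was higher in the OE lines could equally be called lower in the CRISPR lines, and no direction relative to unmodified plants follows.

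NRP1 is named by the study as a negative regulator of photosynthesis. Leaf photosynthesis rests on antenna proteins that bind chlorophyll, on the photosystems and the electron carriers between them, and on the Calvin-Benson cycle that fixes carbon dioxide, and most of their subunits are encoded in the nucleus. The phenylpropanoid pathway begins with phenylalanine ammonia-lyase (PAL) and supplies the monomers of lignin and many defence compounds. Leaves near heading also recycle nitrogen through cytosolic glutamine synthetase and begin to dismantle chlorophyll as they age.

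The count table lists genes by locus identifier only. No label and no reference table used here pairs NRP1 with a locus, and OS07G0471900 was taken as NRP1 from general knowledge, so its values bear on the locus and on the genotype labels together. The other symbols were paired with loci in the same way and each stands for the locus printed beside it. Of 77 list loci picked by the naming rule or added as called members, 42 had the same chromosome and order in RefSeq (ASM3414082v1) and 35 could not be checked there. Most members given as not called are outside that count, and some of them could not be checked either. None of the PAL, antenna and photosystem symbols named here could be checked. The level of NRP1 was 289, 367 and 351 CPM in OE and 3.07, 2.14 and 3.26 CPM in CRISPR lines. CPM are counts scaled to library size after TMM normalization, and a line value comes from the summed counts of its 3 libraries. Single libraries spanned 274 to 407 CPM (median 331) in the OE libraries and 1.98 to 3.8 CPM (median 2.98) in the CRISPR libraries. The OE lines stood 119-fold above the CRISPR lines (log2 difference 6.89, SE 0.19, adjusted p = 6.93e-06), and no library of one genotype reached the range of the other. A test among the lines of one genotype, with libraries as replicates, gave NRP1 an adjusted p of 0.0758 for the OE lines and 0.312 for the CRISPR lines, both above the threshold of 0.05. Reads were still counted at the locus in every CRISPR library, so the counts do not by themselves show what product the edited locus makes.

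**Figure D1:**
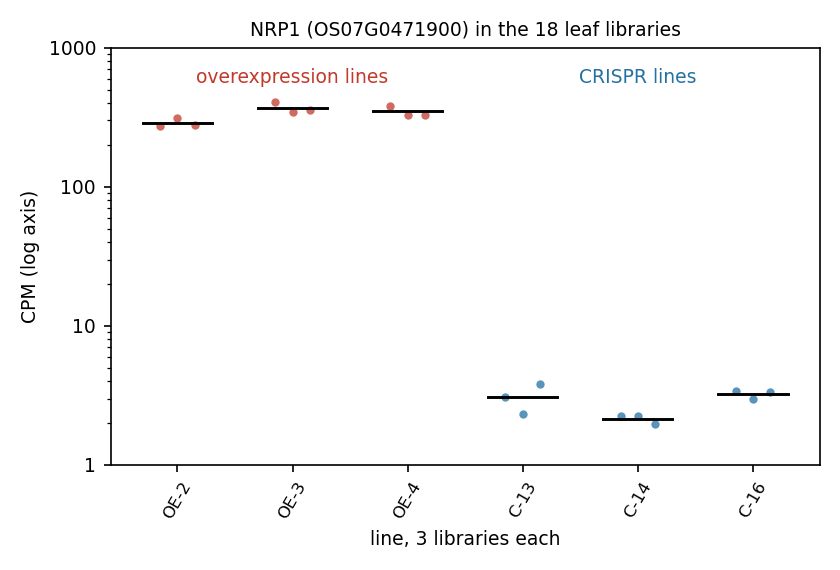
NRP1 level in CPM (counts scaled to library size, log axis) in each library (points) and line (bars, from summed counts), red for OE and blue for CRISPR lines. The OE libraries lie between 274 and 407 CPM and the CRISPR libraries between 1.98 and 3.8 CPM.

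Across the transcriptome, 22553 genes passed the count filter and 3916 of them (17.4%) were called, meaning an adjusted p under 0.05 in edgeR's quasi-likelihood test of 3 line sums against 3. Of these, 2191 (9.71%) were higher and 1725 (7.65%) lower in the OE lines. The median size of the called differences was 1.59-fold for genes higher and 0.64-fold for genes lower in the OE lines, and 683 and 433 of them passed 2-fold. The 3 OE line values all lay above the 3 CRISPR values for 4859 genes (21.5%) and all below for 3999 genes (17.7%). Among called genes this held for 2184 of the 2191 higher and 1724 of the 1725 lower ones. Line values that do not overlap therefore add almost nothing to a call. All 9 OE libraries lay above all 9 CRISPR libraries for 802 genes (3.56%) and below for 481 genes (2.13%). The share called rose with the level in the higher genotype, from 6.97% under 1 CPM to 28.4% over 100 CPM. It was 15.6% at 1 to 10 CPM and 21.2% at 10 to 100 CPM. Leaving out C-16, C-13, C-14 or OE-2 reduced the calls to 1545, 1719, 2108 and 2211, whereas 5234 were made without OE-4 and 3592 without OE-3. Without OE-3 the balance of directions turned, with 1695 genes called higher and 1897 lower. Of the called genes, 267 passed the count filter through the lines of one genotype alone, a choice that favours a difference. They include 144 genes that were higher and passed through the OE lines and 122 that were lower and passed through the CRISPR lines.

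Lines of one genotype were not equally alike. With the spread between libraries as error, 2430 of 20891 genes (11.6%) differed among the OE lines and 113 (0.541%) among the CRISPR lines. The OE count was 910, 931 and 1274 without replicate 2, 1 or 3 of OE-4, 1257 without OE-3 replicate 1 and 3701 without OE-3 replicate 2. The CRISPR count was 67, 70 and 68 without replicate 1, 2 or 3 of C-13 and 70 without C-14 replicate 1. The root mean square difference in log2 CPM over 18709 genes was 0.299 to 0.343 between CRISPR lines, 0.405 to 0.488 between OE lines and 0.545 to 0.681 between lines of different genotype. The first principal component, with 39.1% of the variance, separated all OE libraries (scores of 21.9 to 51.7) from all CRISPR libraries (scores of -45.6 to -19.5). Library totals were 13788243 to 18677096 counts in the OE libraries and 15048957 to 19032786 in the CRISPR libraries. In bulk leaf RNA, fewer cells of a type and less RNA per cell cannot be told apart.

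**Figure D2:**
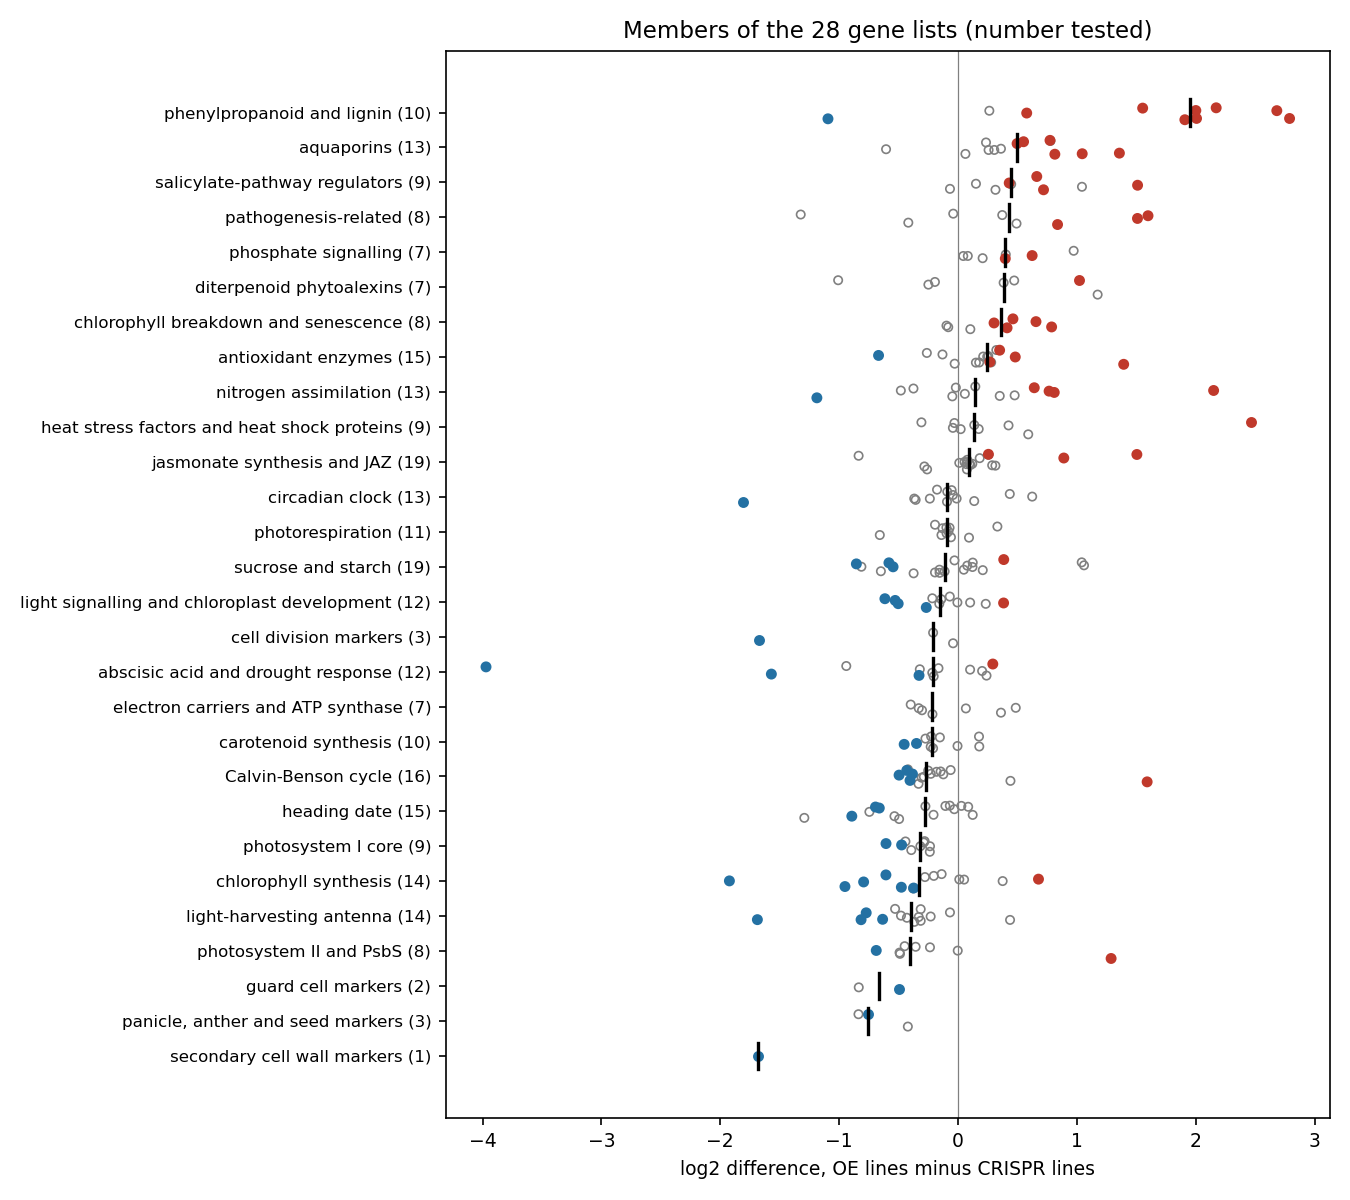
Log2 difference (OE minus CRISPR lines) of each tested member of 28 gene lists, filled where called (red higher, blue lower in OE lines) and open where not, with a black bar at the list median. The phenylpropanoid list has the highest median (1.95), and the antenna, photosystem and chlorophyll synthesis lists have medians of -0.40 to -0.32 beside 0.01 for all genes. The lowest medians are those of the secondary cell wall (-1.68, 1 gene), panicle, anther and seed (-0.76, 3 genes) and guard cell (-0.67, 2 genes) markers.

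Markers of other cell types and tissues were low, and some of them moved with genotype. Of 18 such loci in 4 lists, 9 passed the count filter, and 4 of these were called, all lower in the OE lines. Of all genes tested, 7.65% were called lower. CESA4 and CYCB2;1, among the 4, passed the filter through the CRISPR lines alone, so their direction is not independent of the filter. SLAC1 (OS04G0574700), the slow anion channel of guard cells, stood at 25.9, 30.2 and 30.7 CPM in OE and 37, 44.2 and 41.5 CPM in CRISPR lines (log2 difference -0.5, SE 0.10, adjusted p = 0.0141). SLAC1 lost its call without C-14 or C-16 (log2 -0.44 to -0.49). The summed level of the 3 guard cell markers was 26.6 to 35.1 CPM (median 30.1) in the OE libraries and 31.7 to 53.7 CPM (median 42.1) in the CRISPR libraries. CESA4 (OS01G0750300), a cellulose synthase of secondary walls, was near 0 at 0.434, 0.129 and 0.375 CPM in OE and 1.19, 0.691 and 1.16 CPM in CRISPR lines (log2 difference -1.68, SE 0.42, adjusted p = 0.0304). The CESA4 call was lost without C-13 or C-16 (log2 -1.55 to -1.58), and the summed secondary wall level ranged from 0.0595 to 0.730 CPM in OE and from 0.531 to 1.90 CPM in CRISPR libraries. For the 5 cell division markers the sums overlapped, at 11.5 to 18.5 and 13.9 to 18.8 CPM. CYCB2;1 (OS04G0563700), a mitotic cyclin and the one of them that was called, was near 0 at 0.062, 0.129 and 0.075 CPM in OE and 0.379, 0.224 and 0.254 CPM in CRISPR lines, which is 3, 6 and 4 counts against 20, 11 and 12. The 6 panicle, anther and seed markers summed to 11.9 to 17.9 CPM in OE and 20.1 to 30.3 CPM in CRISPR libraries, almost all of it from a single locus listed as a MADS-box gene, whereas GluA1 (OS01G0762500), a seed storage glutelin, was near 0 at 0.558, 0.279 and 0.6 CPM in OE and 0.644, 1 and 0.952 CPM in CRISPR lines and not called (log2 difference -0.84, SE 0.33, adjusted p = 0.123). The part of these markers in the differences described here was not tested.

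Genes of the photosynthetic apparatus mostly had lower line values in OE-2 and OE-4 than in the CRISPR lines, by small amounts, and OE-3 stood apart from the other OE lines. Of the 54 members of the antenna, photosystem I, photosystem II, electron carrier and Calvin-Benson lists, all of which were tested, 47 had a log2 difference below 0, against 48.5% of all genes tested. Their median difference was -0.32 (0.80-fold), beside 0.01 over all genes. With the line sums as replicates, 11 were called lower and 2 higher, or 24.1% of the lists against 17.4% of all genes. Most of the 54 lie over 100 CPM, where 28.4% of the genes tested were called. The median level of the 54 genes relative to the mean of the 6 lines, on the log2 scale, was -0.22 in OE-2 and -0.42 in OE-4 but 0.11 in OE-3, and 0.14, 0.15 and 0.22 in C-13, C-14 and C-16. Over the 54 genes together OE-3 lay just below the CRISPR lines, and OE-2 and OE-4 further below all of them. Single lists differed in this, and OE-3 (0.20) lay above C-13 (0.14) and C-14 (0.19) in the photosystem I core and above C-13 (0.06) and C-14 (0.07) in the electron carriers. Over the 54 genes the OE-3 libraries were at 0.42, -0.05 and 0.002, so replicate 1 raised the line value. Replicate 2 lay just below the CRISPR libraries and replicate 3 at the low end of their range. Both lay above all libraries of OE-2 and OE-4. The CRISPR libraries spanned -0.02 to 0.30, and those of OE-2 and OE-4 spanned -0.51 to -0.11. Among the OE lines, 31 of the 54 differed from line to line, a share above the 11.6% of all genes, and among the CRISPR lines 0 differed. Without OE-3, 37 of the 54 were called lower. Without OE-4 there were 10, without C-13 there were 4, and without OE-2, C-14 or C-16 there was 1. Single libraries moved the count as well, to 24 without OE-3 replicate 1, 4 without OE-3 replicate 2 and 7 without C-14 replicate 3. The libraries of replicate number 1, 2 or 3 alone gave 1, 0 and 27 called lower. DESeq2's Wald test on the same line sums called 23 of the 54 lower and 3 higher, where it called 4652 of 22553 genes. Single libraries, with the spread between libraries as error, called 42 lower and 3 higher, where they called 9157 of 20891 genes.

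**Figure D3:**
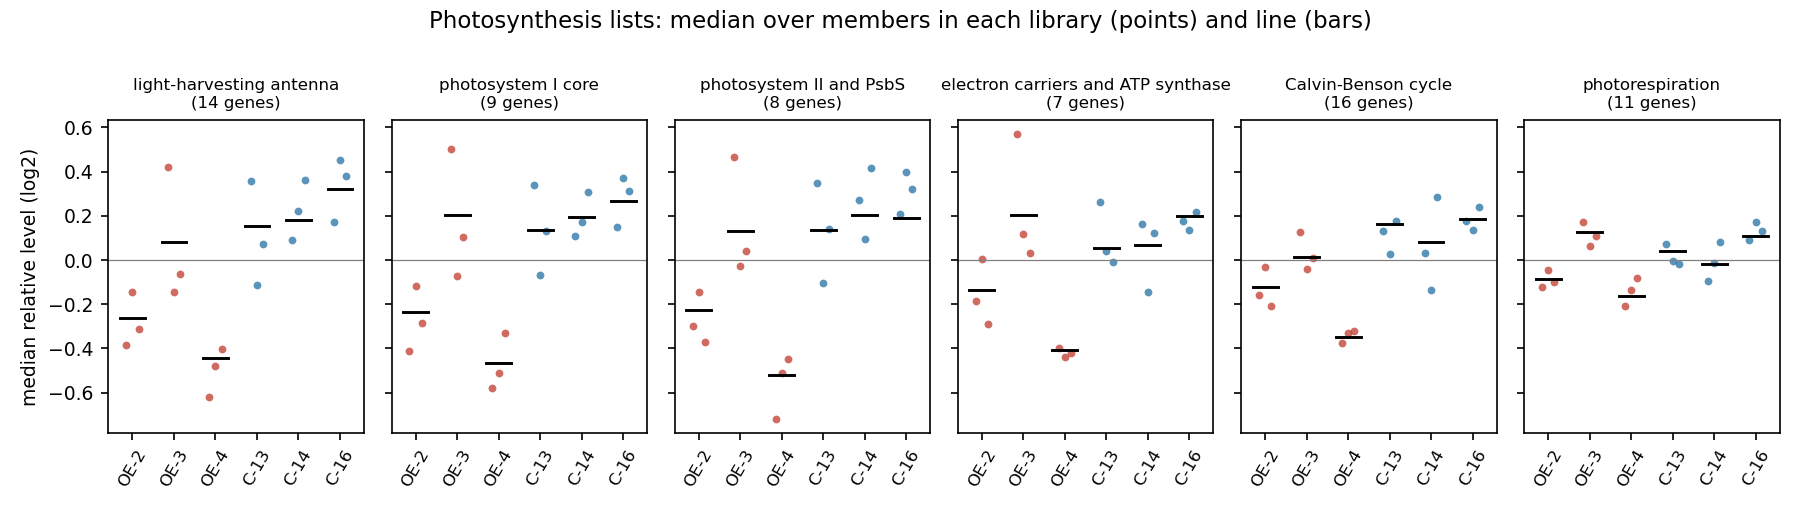
Median over list members of the log2 level relative to the mean of the 6 lines, in each library (points) and line (bars), for 6 photosynthesis lists. OE-2 and OE-4 lie below the CRISPR lines in the first 5 panels while the OE-3 bar lies among or near them, and the photorespiration medians span less than the other lists. Replicate 1 is the highest OE-3 point in each panel.

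Among the antenna proteins, which bind most leaf chlorophyll, 4 of 14 members were called lower and 0 higher (median -0.40), or 28.6% against 17.4% of all genes. Of all genes over 100 CPM, where most antenna members lie, 28.4% were called. Without OE-3 replicate 1, 10 antenna members were called lower. Lhca1 (OS06G0320500), a photosystem I antenna protein, was at 1734, 2027 and 1506 CPM in OE and 2487, 2774 and 2915 CPM in CRISPR lines (log2 difference -0.63, SE 0.13, adjusted p = 0.016). Lhcb4 (OS07G0558400), the minor photosystem II antenna also known as CP29, was at 1826, 2412 and 1581 CPM in OE and 3015, 3537 and 3390.02 CPM in CRISPR lines (log2 difference -0.77, SE 0.16, adjusted p = 0.0167). In both genes OE-3 was the highest OE line and still lay below every CRISPR line. Lhca1 lost its call without OE-2, C-14 or C-16 (log2 -0.58 to -0.62). Lhcb4 lost it without OE-2, C-14 or C-16 (log2 -0.72 to -0.76). Lhcb1.2 (OS01G0720500), a member of the major light-harvesting family with many close copies, was at 17.1, 26.7 and 18.6 CPM in OE and 43, 97.2 and 60.8 CPM in CRISPR lines (log2 difference -1.69, SE 0.29, adjusted p = 0.00871) and stayed called whichever line was left out. By contrast the more abundant family copies Lhcb1.1 (OS01G0600900) (5280.02, 6647 and 4112 CPM in OE and 5221, 5874 and 5719 CPM in CRISPR lines) and Lhcb1.3 (OS09G0346500) (8293, 8833 and 6194 CPM in OE and 9208, 8999.5 and 9151 CPM in CRISPR lines) were not called, with adjusted p of 0.821 and 0.325. Reads of near-identical copies may have been split between them by the counting, so the values of single Lhcb1 copies are uncertain.

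In photosystem I, 2 of 9 core members were called lower, 0 higher, and all 9 differences lay below 0 (median -0.32). The share of 22.2% compares with 17.4% of all genes and 28.4% of genes over 100 CPM. PsaD (OS08G0560900), a subunit at the ferredoxin docking side, stood at 921, 1177 and 958 CPM in OE and 1374, 1398 and 1475 CPM in CRISPR lines (log2 difference -0.47, SE 0.11, adjusted p = 0.0266). PsaO (OS04G0414700), which sits where the mobile antenna docks, stood at 941, 1266 and 847 CPM in OE and 1433, 1584 and 1632 CPM in CRISPR lines (log2 difference -0.61, SE 0.15, adjusted p = 0.0322). Line values did not overlap between genotypes for either gene, as for nearly all called genes. PsaD lost its call without OE-2, C-13, C-14 or C-16 and without OE-3 replicate 2 or C-13 replicate 1 (log2 -0.41 to -0.50). PsaO lost it without OE-2, C-13, C-14 or C-16 and without OE-3 replicate 2 or C-13 replicate 1 (log2 -0.55 to -0.66). In photosystem II, 1 of 8 members was called lower and 1 higher (median -0.40), or 25% against the same 17.4% and 28.4%. PsbQ (OS07G0544800), of the oxygen-evolving complex, stood at 858, 1273 and 752 CPM in OE and 1323, 1658 and 1665 CPM in CRISPR lines (log2 difference -0.69, SE 0.20, adjusted p = 0.0483). PsbQ lost its call without OE-2, OE-4, C-13, C-14 or C-16 and without OE-2 replicate 1 or 3, OE-3 replicate 2 or 3, OE-4 replicate 3, C-13 replicate 1 or 3, C-14 replicate 1 or 3 or C-16 replicate 3 (log2 -0.54 to -0.79). PsbR (OS07G0147500), a small photosystem II protein, went the other way at 681, 897 and 409.7 CPM in OE and 199.96, 352 and 263 CPM in CRISPR lines (log2 difference 1.29, SE 0.29, adjusted p = 0.0225). PsbR varied widely among libraries, with 213 to 1354 CPM (median 604) in the OE libraries and 38.8 to 704 CPM (median 192) in the CRISPR libraries. PsbR lost its call without OE-2, OE-3, C-13 or C-16 and without C-14 replicate 1 or 3 or C-16 replicate 1 (log2 0.98 to 1.27). None of the 7 electron carrier and ATP synthase members was called (0 higher, 0 lower, median -0.22). The one with the smallest p was AtpC (OS07G0513000), a subunit of the chloroplast ATP synthase, at 1079, 1479.5 and 986 CPM in OE and 1594, 1489.5 and 1588 CPM in CRISPR lines (log2 difference -0.4, SE 0.15, adjusted p = 0.11). OE-3 came close to the lowest CRISPR line there.

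In the Calvin-Benson cycle, 4 of 16 members were called lower and 1 higher (median -0.27). This share of 31.2% compares with 17.4% of all genes and 28.4% of genes over 100 CPM. GAPB (OS03G0129300), a subunit of chloroplast glyceraldehyde-3-phosphate dehydrogenase, was at 3873, 4617 and 3419 CPM in OE and 5498, 5519 and 5781 CPM in CRISPR lines (log2 difference -0.5, SE 0.13, adjusted p = 0.0376). PRK (OS02G0698000), phosphoribulokinase, which regenerates the carbon dioxide acceptor, was at 1414, 1597 and 1738 CPM in OE and 2107, 1981 and 2196 CPM in CRISPR lines (log2 difference -0.4, SE 0.11, adjusted p = 0.0383). RPE (OS03G0169100), ribulose-phosphate epimerase, was at 899, 1007 and 813 CPM in OE and 1150.2, 1181 and 1216 CPM in CRISPR lines (log2 difference -0.38, SE 0.10, adjusted p = 0.0373). For PRK all 9 OE libraries lay below all 9 CRISPR libraries, and it differed from most of the apparatus in having OE-4 as its highest OE line. GAPB lost its call without OE-2, C-13, C-14 or C-16 and without OE-3 replicate 2 or 3 (log2 -0.46 to -0.51). PRK lost it without OE-2, C-13, C-14 or C-16 and without C-14 replicate 3 (log2 -0.33 to -0.44), and RPE without OE-2, C-13, C-14 or C-16 and without OE-3 replicate 2 or C-14 replicate 3 (log2 -0.36 to -0.40). Rubisco activase, RCA (OS11G0707000), was at 45745, 56382 and 47259.8 CPM in OE and 61159.6, 59104 and 62069 CPM in CRISPR lines and not called (log2 difference -0.29, SE 0.15, adjusted p = 0.235). The locus called higher was listed as a Rubisco small-subunit gene, a family whose near-identical copies cannot be told apart with certainty in these counts. The 11 photorespiration genes, which recover carbon lost through Rubisco's oxygenase reaction, gave 0 calls (median -0.10). The smallest p among them was for AGT1 (OS08G0502700), a peroxisomal aminotransferase, at 1947, 2344 and 1908 CPM in OE and 1701, 1559 and 1669 CPM in CRISPR lines (log2 difference 0.33, SE 0.11, adjusted p = 0.0765).

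Of 14 chlorophyll synthesis genes, 6 were called lower and 1 higher in the OE lines (median -0.33), which is 50% of the list against 17.4% of all genes. HEMA1 (OS10G0502400), glutamyl-tRNA reductase at the head of the pathway, was at 17.5, 13.9 and 20.6 CPM in OE and 31, 31.4 and 38.3 CPM in CRISPR lines (log2 difference -0.95, SE 0.15, adjusted p = 0.0064). Of the protochlorophyllide oxidoreductases, which carry out the light-dependent step, PORA (OS04G0678700) was at 7.19, 9.04 and 4.44 CPM in OE and 16.7, 34 and 27.7 CPM in CRISPR lines (log2 difference -1.92, SE 0.31, adjusted p = 0.00685). Its partner PORB (OS10G0496900) was at 258, 251 and 197 CPM in OE and 365, 409.5 and 451 CPM in CRISPR lines (log2 difference -0.79, SE 0.13, adjusted p = 0.00628). The calls of these 3 genes held in each fit that left out a line or a library. CHLH (OS03G0323200), a magnesium chelatase subunit, was at 1687, 1674 and 1851 CPM in OE and 2242, 2408 and 2603 CPM in CRISPR lines (log2 difference -0.48, SE 0.10, adjusted p = 0.0174). CHLH lost its call without OE-2, C-14 or C-16 (log2 -0.42 to -0.48). CRD1 (OS01G0279100), the cyclase of the pathway, was at 1191, 1341 and 971 CPM in OE and 1631, 1769 and 1935 CPM in CRISPR lines (log2 difference -0.61, SE 0.14, adjusted p = 0.0206). For CAO1 (OS10G0567400), chlorophyllide a oxygenase, which makes chlorophyll b, the values were 711, 698 and 655 CPM in OE and 888, 863 and 923 CPM in CRISPR lines (log2 difference -0.37, SE 0.08, adjusted p = 0.0198). CRD1 lost its call without OE-2, C-13, C-14 or C-16 and without OE-3 replicate 2 (log2 -0.54 to -0.67), and CAO1 without OE-2, C-13, C-14 or C-16 (log2 -0.35 to -0.40). The exception was CHLG (OS05G0349700), chlorophyll synthase, which adds the phytyl tail in the final step. It was higher in the OE lines at 166, 189.5 and 149 CPM in OE and 109.7, 83.4 and 123 CPM in CRISPR lines (log2 difference 0.68, SE 0.15, adjusted p = 0.0204), with all 9 OE libraries above all 9 CRISPR libraries and the call lost without OE-2 or C-13 (log2 0.69 to 0.71). Within the list, 3 members were called lower without OE-2, C-14 or C-16, 4 without C-13, 6 without OE-4 and 7 without OE-3.

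Of 8 genes of chlorophyll breakdown and leaf senescence, 5 were called higher and 0 lower in the OE lines (median 0.36), where 9.71% and 7.65% of all genes were. NAP (OS03G0327800), a NAC transcription factor that promotes senescence in rice, was at 53.8, 56.1 and 61 CPM in OE and 35.6, 38.1 and 34.9 CPM in CRISPR lines (log2 difference 0.66, SE 0.08, adjusted p = 0.00244). RCCR1 (OS10G0389200), red chlorophyll catabolite reductase, was at 27.4, 29.4 and 23.9 CPM in OE and 15.3, 14.7 and 16.7 CPM in CRISPR lines (log2 difference 0.79, SE 0.10, adjusted p = 0.00331). Both kept their calls whichever line or library was left out, and all 9 OE libraries lay above all 9 CRISPR libraries for RCCR1. SGR (OS09G0532000), the stay-green magnesium dechelatase, was at 42.7, 34.2 and 46.1 CPM in OE and 32.3, 29.4 and 27.6 CPM in CRISPR lines (log2 difference 0.46, SE 0.12, adjusted p = 0.0354). For NOL (OS03G0654600), a chlorophyll b reductase subunit, the values were 27.4, 31.4 and 26.7 CPM in OE and 21.9, 18.5 and 23.8 CPM in CRISPR lines (log2 difference 0.41, SE 0.11, adjusted p = 0.0426). SGR lost its call without OE-2, OE-4, C-13, C-14 or C-16 and without OE-2 replicate 1, OE-3 replicate 2, C-13 replicate 3, C-14 replicate 3 or C-16 replicate 3 (log2 0.37 to 0.52), and NOL lost its call without OE-2, OE-3, C-13, C-14 or C-16 and without OE-2 replicate 1, OE-3 replicate 2, OE-4 replicate 2, C-13 replicate 3, C-14 replicate 3 or C-16 replicate 1 or 3 (log2 0.31 to 0.50). Not called were NYC1 (OS01G0227100), the other chlorophyll b reductase subunit, at 179, 178 and 184 CPM in OE and 204, 182 and 193 CPM in CRISPR lines (adjusted p = 0.399) and PAO (OS03G0146400), pheophorbide a oxygenase, at 142, 128 and 134 CPM in OE and 144, 138 and 146 CPM in CRISPR lines (adjusted p = 0.467). The list count was 2 without OE-2, C-13, C-14 or C-16. It was 3 without OE-2 replicate 1, OE-3 replicate 2, C-13 replicate 3 or C-14 replicate 3, and 2 without C-16 replicate 3.

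**Figure D4:**
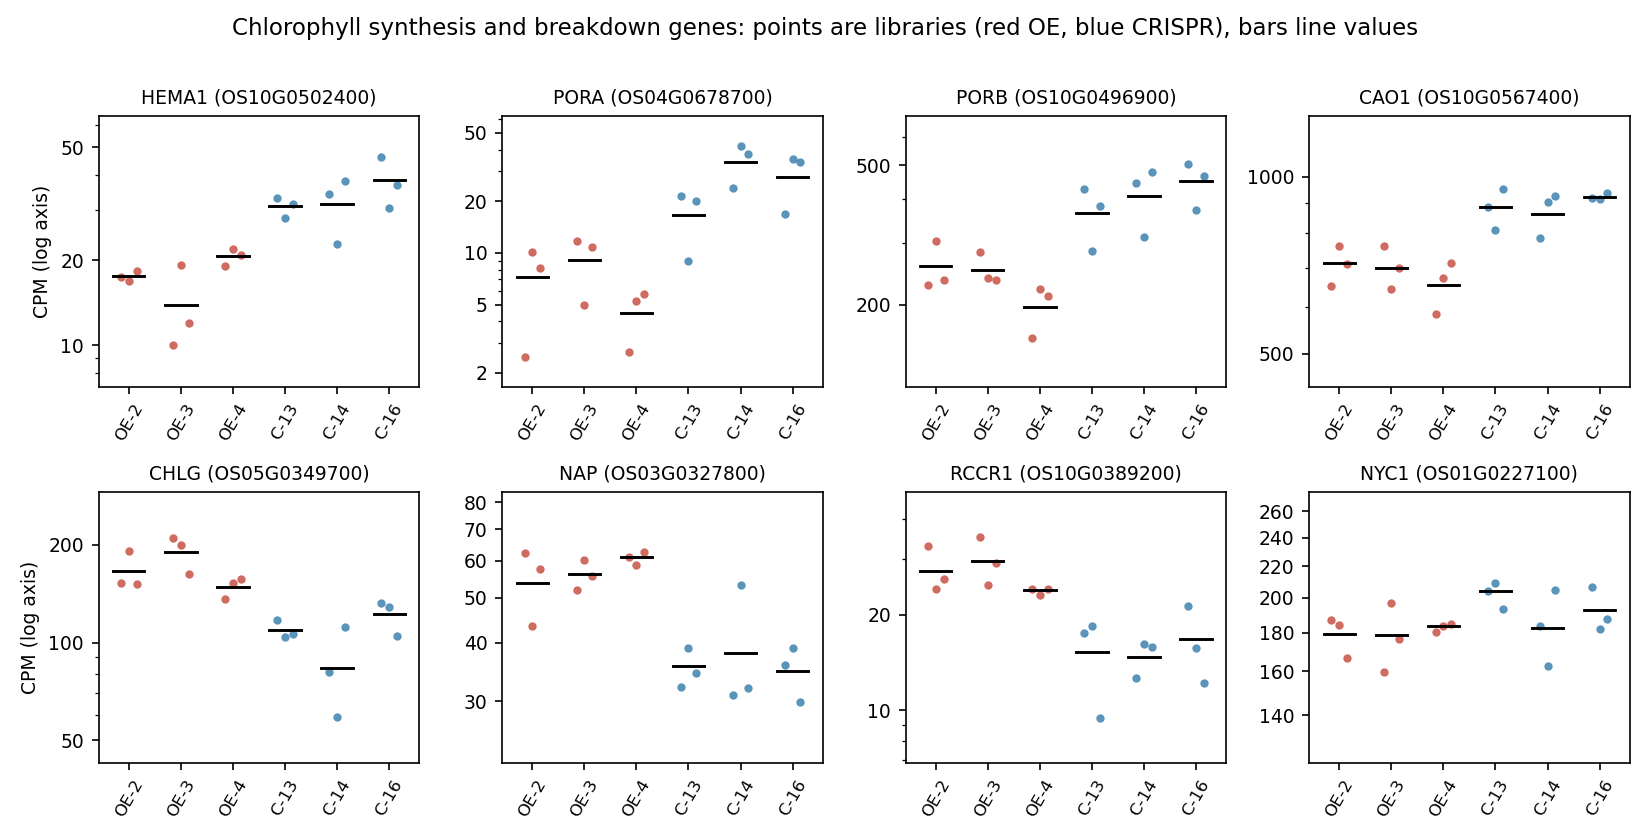
Levels in CPM (log axes) of 8 chlorophyll genes in each library (points, red OE, blue CRISPR) and line (bars). HEMA1, PORA, PORB and CAO1 sit lower in the OE lines, CHLG, NAP and RCCR1 sit higher, and NYC1 overlaps (179, 178 and 184 against 204, 182 and 193 CPM).

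In the light signalling and chloroplast development list, 4 of 12 were called lower and 1 higher (median -0.15), or 41.7% against 17.4% of all genes. The 4 were 2 without OE-2 and 1 without C-13 or C-16, and 2 without OE-2 replicate 1. GLK1 (OS06G0348800), a transcription factor that drives nuclear photosynthesis and chlorophyll genes, was at 184, 181 and 134 CPM in OE and 278, 226 and 261 CPM in CRISPR lines (log2 difference -0.62, SE 0.14, adjusted p = 0.0212). Its relative GLK2 (OS01G0239000) was at 222, 225 and 216 CPM in OE and 274, 252 and 270.4 CPM in CRISPR lines (log2 difference -0.27, SE 0.07, adjusted p = 0.0416). CGA1 (OS02G0220400), a GATA factor that promotes chloroplast development, was at 34.1, 38 and 35.4 CPM in OE and 54.1, 43.1 and 55.3 CPM in CRISPR lines (log2 difference -0.5, SE 0.11, adjusted p = 0.0174). The phytochrome-interacting factor PIL13 (OS03G0782500) was at 359.7, 372 and 335 CPM in OE and 515, 516 and 508 CPM in CRISPR lines (log2 difference -0.53, SE 0.08, adjusted p = 0.00471), and its 9 OE libraries all lay below the 9 CRISPR libraries. PHYA (OS03G0719800), the far-red photoreceptor phytochrome A, was the one called higher, at 19.6, 20.6 and 18.2 CPM in OE and 13.9, 15.4 and 15.5 CPM in CRISPR lines (log2 difference 0.38, SE 0.09, adjusted p = 0.0273). GLK1 lost its call without C-13 or C-16 and without OE-2 replicate 1 (log2 -0.55 to -0.60), and GLK2 without OE-2, OE-4, C-13, C-14 or C-16 and without OE-2 replicate 1, OE-3 replicate 2, OE-4 replicate 1, C-14 replicate 1 or C-16 replicate 3 (log2 -0.23 to -0.30). CGA1 lost it without OE-2, C-13 or C-16 (log2 -0.44 to -0.47), and PHYA without OE-2, OE-3, C-13, C-14 or C-16 and without C-14 replicate 1 or C-16 replicate 1 (log2 0.32 to 0.41). The PIL13 call was kept without any single line or library. Carotenoid synthesis had 2 of 10 called lower and 0 higher (median -0.22), or 20% against 17.4%. ZEP (OS04G0448900), zeaxanthin epoxidase of the xanthophyll cycle, was at 606, 547 and 635 CPM in OE and 843, 791 and 814 CPM in CRISPR lines (log2 difference -0.45, SE 0.09, adjusted p = 0.0131). LCYE (OS01G0581300), the lycopene cyclase that leads to lutein, was at 59, 60.7 and 55.9 CPM in OE and 67, 72.2 and 84.6 CPM in CRISPR lines (log2 difference -0.35, SE 0.10, adjusted p = 0.0443). The ZEP call was lost without C-13 or C-16 (log2 -0.43 to -0.45) and the LCYE call without OE-2, OE-4, C-13, C-14 or C-16 and without OE-2 replicate 1, OE-3 replicate 2, OE-4 replicate 1, C-13 replicate 1 or 3, C-14 replicate 3 or C-16 replicate 3 (log2 -0.25 to -0.42).

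The phenylpropanoid list had the highest median of the 28 lists. Of 11 members 10 were tested, and 8 were called higher and 1 lower in the OE lines, against 9.71% and 7.65% of all genes. The median difference was 1.95 on the log2 scale (3.87-fold). At the entry of the pathway, PAL1 (OS02G0626100) was at 199, 239 and 279 CPM in OE and 40.3, 36.1 and 35.2 CPM in CRISPR lines (log2 difference 2.68, SE 0.13, adjusted p = 0.000127). PAL2 (OS02G0626400) was at 437, 402 and 511 CPM in OE and 122, 103 and 110.4 CPM in CRISPR lines (log2 difference 2.01, SE 0.12, adjusted p = 0.000186). PAL4 (OS02G0627100) was at 69.4, 95.5 and 125 CPM in OE and 12, 18.1 and 11.8 CPM in CRISPR lines (log2 difference 2.79, SE 0.25, adjusted p = 0.000855). No OE library of these 3 genes came down to the highest CRISPR library, the closest approach being in PAL2, with 249 to 602 CPM (median 469) in the OE libraries and 60.6 to 180.5 CPM (median 122) in the CRISPR libraries. PAL1, PAL2 and PAL4 lie close together on chromosome 2 and are close paralogs, so reads could have been shared between them in the counting.

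Downstream enzymes were also higher in the OE lines. 4CL3 (OS02G0177600), a 4-coumarate:CoA ligase of lignin synthesis, was at 42, 46.4 and 42.7 CPM in OE and 12.8, 11.1 and 10.9 CPM in CRISPR lines (log2 difference 1.91, SE 0.09, adjusted p = 0.000127). COMT1 (OS08G0157500), the O-methyltransferase that acts on lignin precursors, was at 371, 408 and 397 CPM in OE and 136, 134 and 130.3 CPM in CRISPR lines (log2 difference 1.55, SE 0.08, adjusted p = 0.000127). CAD2 (OS02G0187800), the cinnamyl alcohol dehydrogenase of the last step to monolignols, was at 66.7, 76.8 and 73.8 CPM in OE and 13.8, 17.4 and 17 CPM in CRISPR lines (log2 difference 2.17, SE 0.11, adjusted p = 0.000127). For each of the 3 genes all OE libraries exceeded all CRISPR libraries, and the 3 libraries of C-14 spread wider than the 3 CRISPR line values did. The remaining members named here differed from these. C4H (OS05G0320700), the cinnamate 4-hydroxylase between PAL and the ligase, was at 68.6, 66.2 and 75.6 CPM in OE and 66.5, 53.4 and 55.4 CPM in CRISPR lines and not called (log2 difference 0.26, SE 0.10, adjusted p = 0.115). PAL6 (OS04G0518400), of another chromosome, was lower in the OE lines at 41, 48.5 and 35.3 CPM in OE and 109, 66.7 and 90.4 CPM in CRISPR lines (log2 difference -1.09, SE 0.19, adjusted p = 0.00792), with libraries overlapping at 26 to 74.3 CPM (median 33.9) in the OE libraries and 44.4 to 165 CPM (median 91.9) in the CRISPR libraries. PAL1, PAL2, PAL4, 4CL3, COMT1 and CAD2 were called in each alternative tried, including the 3 fits that used the libraries of one replicate number alone. The list count was 8 without OE-2, OE-3, OE-4 or C-13 and 7 without C-14 or C-16. The secondary wall marker CESA4 given above was near 0 in both genotypes and lower in the OE lines. It passed the filter through the CRISPR lines alone, so that direction is not independent of the filter.

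**Figure D5:**
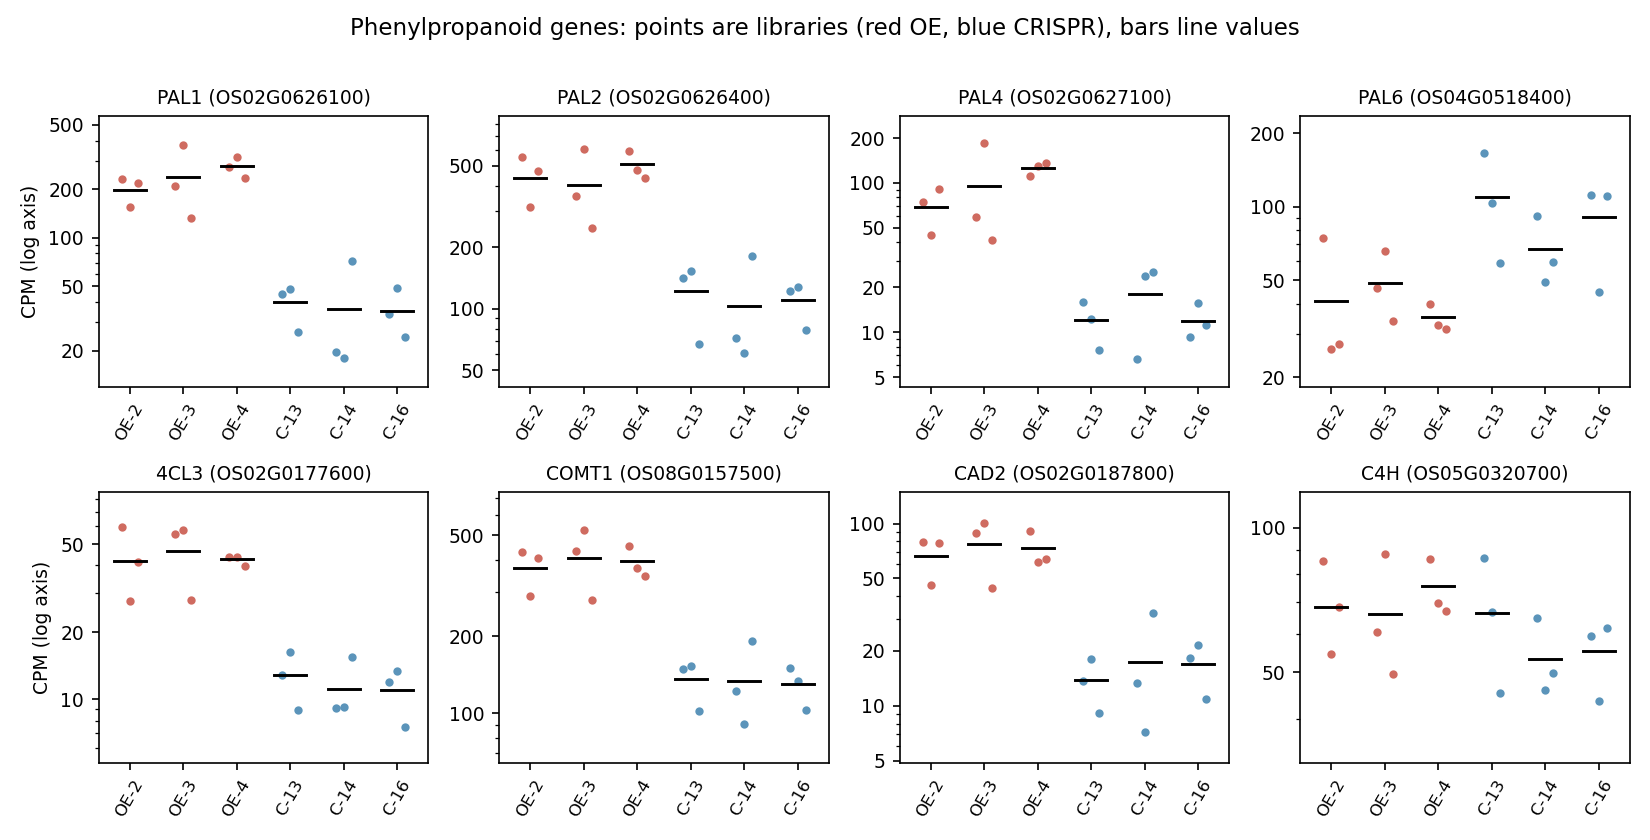
Levels in CPM (log axes) of 8 phenylpropanoid genes in each library (points, red OE, blue CRISPR) and line (bars). PAL1, PAL2, PAL4, 4CL3, COMT1 and CAD2 are higher in all OE libraries, PAL6 is lower in the OE lines, and C4H overlaps.

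Of 9 genes listed as regulators of the salicylate pathway, 4 were called higher and 0 lower (median 0.45), or 44.4% against 17.4% of all genes, and 2 without C-13 or C-16. NH1 (OS01G0194300), the rice counterpart of Arabidopsis NPR1, was at 26.8, 28.4 and 26.5 CPM in OE and 14.8, 19.4 and 15.5 CPM in CRISPR lines (log2 difference 0.72, SE 0.11, adjusted p = 0.00622). WRKY70 (OS05G0474800) was at 2.65, 3.2 and 4.1 CPM in OE and 1.53, 1.04 and 0.91 CPM in CRISPR lines (log2 difference 1.51, SE 0.25, adjusted p = 0.00774). WRKY53 (OS05G0343400) was at 71.8, 101 and 87.3 CPM in OE and 49.3, 59.4 and 56 CPM in CRISPR lines (log2 difference 0.66, SE 0.13, adjusted p = 0.0138). For WRKY13 (OS01G0750100) the values were 63, 69.8 and 56.3 CPM in OE and 46.3, 48.1 and 45.9 CPM in CRISPR lines (log2 difference 0.43, SE 0.09, adjusted p = 0.0166). NH1 and WRKY70 kept their calls without any single line, whereas WRKY53 lost its call without C-13 or C-16 (log2 0.59 to 0.68) and WRKY13 without OE-2, C-13, C-14 or C-16 (log2 0.42 to 0.45). WRKY45 (OS05G0322900), a central activator of benzothiadiazole-induced resistance, varied from line to line within both genotypes, at 26.6, 121 and 80.7 CPM in OE and 15.6, 89.2 and 63 CPM in CRISPR lines. It was lowest in OE-2 and in C-13, was not called (log2 difference 0.45, SE 0.65, adjusted p = 0.671), and differed both among OE lines and among CRISPR lines. WRKY62 (OS09G0417800) was at 1.24, 9.62 and 8.58 CPM in OE and 0.644, 8.07 and 6.96 CPM in CRISPR lines. WRKY76 (OS09G0417600) was at 5.52, 33.2 and 23.7 CPM in OE and 1.48, 36.9 and 27.1 CPM in CRISPR lines, and both had the line order of WRKY45 within each genotype. WRKY45, WRKY62 and WRKY76 were singled out after their values were seen.

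Among 8 pathogenesis-related genes, 3 were called higher and 0 lower (median 0.43), or 37.5% against 17.4% of all genes. Their log2 differences ran from -1.32 to 1.6, with 3 below 0 and 5 above. JIOsPR10 (OS03G0300400) was not called, at 2.36 to 28.7 CPM (median 6.97) in the OE libraries and 10.5 to 46.3 CPM (median 15.6) in the CRISPR libraries. Without OE-2, 4 members were called higher and 1 lower, and without C-14 2 and 1. The locus listed as PR10b (OS12G0555000) was at 48, 49.5 and 60.8 CPM in OE and 18, 20 and 14.3 CPM in CRISPR lines (log2 difference 1.6, SE 0.14, adjusted p = 0.000868), and all OE libraries exceeded all CRISPR libraries. Its neighbour listed as RSOsPR10 (OS12G0555200) was at 6.76, 6.61 and 9.67 CPM in OE and 3.35, 4.66 and 4.91 CPM in CRISPR lines (log2 difference 0.84, SE 0.20, adjusted p = 0.0283). Which symbol belongs to which of these 2 related loci is uncertain. RSOsPR10 lost its call without C-13, C-14 or C-16 and without OE-2 replicate 1, OE-3 replicate 2 or C-16 replicate 3 (log2 0.68 to 0.94). The classical markers PR1a (OS07G0129200) and PR1b (OS01G0382000) were near 0 in both genotypes, at 0.682, 0.322 and 0.262 CPM in OE and 0.114, 0.305 and 0.487 CPM in CRISPR lines and 0.868, 0.408 and 0.562 CPM in OE and 0.455, 0.285 and 1.16 CPM in CRISPR lines, with adjusted p of 0.575 and 0.967. In diterpenoid phytoalexin synthesis, 7 of 9 genes were tested and 1 was called (14.3%, below the 17.4% of all genes), CPS4 (OS04G0178300), the momilactone-branch cyclase, at 7.63, 4.98 and 10.3 CPM in OE and 2.82, 4.53 and 3.98 CPM in CRISPR lines (log2 difference 1.02, SE 0.28, adjusted p = 0.041). CPS4 lost its call without OE-2, OE-4, C-13, C-14 or C-16 and without OE-3 replicate 2, C-14 replicate 1 or 3 or C-16 replicate 1 or 3 (log2 0.74 to 1.17). The log2 differences of the 7 tested phytoalexin genes ran from -1.01 to 1.17, with 3 below 0 and 4 above. CPS2 (OS02G0571100) had medians of 16.5 CPM in the OE libraries and 27.3 CPM in the CRISPR libraries and was not called. Without OE-4, 0 members were called higher and 1 lower. Jasmonate synthesis and signalling had 3 of 19 tested members called higher and 0 lower (median 0.10). This share of 15.8% was close to the 17.4% of all genes, and there were 5 without C-16 replicate 2. LOX8 (OS08G0508800), a lipoxygenase, was at 14.9, 18.3 and 20.4 CPM in OE and 5.93, 7.04 and 5.92 CPM in CRISPR lines (log2 difference 1.5, SE 0.14, adjusted p = 0.00103) and was called in each alternative. COI1a (OS01G0853400), a jasmonate receptor subunit, was at 109.7, 110.2 and 110.3 CPM in OE and 93.6, 94.2 and 88.8 CPM in CRISPR lines (log2 difference 0.26, SE 0.07, adjusted p = 0.0357). COI1a lost its call without OE-2, OE-3, C-13, C-14 or C-16 and without OE-3 replicate 2, OE-4 replicate 1, C-13 replicate 3 or C-14 replicate 3 (log2 0.23 to 0.27). None of the JAZ repressors, which respond quickly to jasmonate, was called.

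In nitrogen assimilation, 4 of 13 tested members were called higher and 1 lower (median 0.15, 38.5% against 17.4% of all genes), and the genes for cytosolic glutamine synthetase differed in opposite directions. GS1;1 (OS02G0735200), the main cytosolic form in rice leaves, was at 1203, 1454 and 1329.9 CPM in OE and 771, 751 and 753 CPM in CRISPR lines (log2 difference 0.81, SE 0.10, adjusted p = 0.00243). GS1;2 (OS03G0223400) was at 79.9, 97.5 and 111 CPM in OE and 236, 191 and 230.3 CPM in CRISPR lines (log2 difference -1.19, SE 0.14, adjusted p = 0.00213). The chloroplast form GS2 (OS04G0659100) was at 3525, 3989.96 and 3328 CPM in OE and 3648, 3619 and 3945 CPM in CRISPR lines and not called (log2 difference -0.05, SE 0.11, adjusted p = 0.798). For GS1;1 the 9 OE libraries lay above, and for GS1;2 below, all 9 CRISPR libraries. ASN1 (OS03G0291500), an asparagine synthetase, was at 4.84, 5.92 and 4.39 CPM in OE and 1, 1.22 and 1.18 CPM in CRISPR lines (log2 difference 2.15, SE 0.18, adjusted p = 0.000689). AMT1;1 (OS04G0509600), an ammonium transporter, was at 184, 215 and 161 CPM in OE and 119.5, 115 and 125 CPM in CRISPR lines (log2 difference 0.64, SE 0.11, adjusted p = 0.00844). For NADH-GOGAT1 (OS01G0681900), which works with cytosolic glutamine synthetase, the values were 2.48, 2.34 and 2.68 CPM in OE and 1.61, 1.48 and 1.31 CPM in CRISPR lines (log2 difference 0.77, SE 0.16, adjusted p = 0.0176). NADH-GOGAT1 lost its call without OE-2, C-14 or C-16 (log2 0.69 to 0.77). GS1;1, GS1;2, ASN1 and AMT1;1 kept their calls without any single line or library. The ferredoxin-dependent glutamate synthase of the chloroplast, Fd-GOGAT (OS07G0658400), was not called at 4705, 4704 and 5584 CPM in OE and 5338, 4735 and 5116 CPM in CRISPR lines (log2 difference -0.02, SE 0.12, adjusted p = 0.931).

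Phosphate signalling had 2 of 7 tested members called higher and 0 lower (median 0.40), or 28.6% against 17.4% of all genes. There were 0 without C-13 or C-14 and 1 without OE-3, OE-4 or C-16. SPX4 (OS03G0827500), a phosphate sensor, was at 24.9, 26.7 and 26.6 CPM in OE and 18.9, 19 and 21.5 CPM in CRISPR lines (log2 difference 0.4, SE 0.09, adjusted p = 0.0188). For PT8 (OS10G0444700), a phosphate transporter, the values were 11.5, 17.2 and 15.9 CPM in OE and 8.2, 10.5 and 10.2 CPM in CRISPR lines (log2 difference 0.62, SE 0.17, adjusted p = 0.0416). SPX4 lost its call without C-13 or C-14 (log2 0.36 to 0.37) and PT8 without OE-3, OE-4, C-13, C-14 or C-16 and without OE-2 replicate 2, OE-3 replicate 2, C-14 replicate 1 or C-16 replicate 3 (log2 0.48 to 0.69). In sucrose and starch metabolism, 3 of 19 tested members were called lower and 1 higher (median -0.11). This share of 21.1% was close to the 17.4% of all genes. The 3 lower ones are enzymes of starch synthesis, and 5 were called lower without OE-4. SSI (OS06G0160700), starch synthase I, was at 240.1, 174 and 246 CPM in OE and 406, 367 and 421 CPM in CRISPR lines (log2 difference -0.86, SE 0.14, adjusted p = 0.00669). AGPL3 (OS03G0735000), a large subunit of ADP-glucose pyrophosphorylase, was at 63.6, 56.1 and 68 CPM in OE and 100.5, 85.2 and 95.2 CPM in CRISPR lines (log2 difference -0.58, SE 0.10, adjusted p = 0.00792). For SSIIb (OS02G0744700), another starch synthase, the values were 156, 140.1 and 176 CPM in OE and 239.5, 212 and 239 CPM in CRISPR lines (log2 difference -0.55, SE 0.10, adjusted p = 0.0113). All 9 OE libraries lay below all 9 CRISPR libraries for these 3 genes. The SSI and AGPL3 calls were kept without any single line, and that of SSIIb was lost without C-13 or C-16 (log2 -0.52). AGPL1 (OS05G0580000), another large subunit, was at 244, 96.6 and 111 CPM in OE and 115, 39.2 and 65.3 CPM in CRISPR lines, high in OE-2 and overlapping elsewhere, and was not called (log2 difference 1.04, SE 0.44, adjusted p = 0.144).

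Of 15 tested heading-date genes, 3 were called lower and 0 higher (median -0.27). The share of 20% was close to the 17.4% of all genes, and 5 were called lower without OE-3 replicate 1. Hd3a (OS06G0157700), which encodes a florigen made in leaves, was at 50.5, 50 and 55.8 CPM in OE and 71.9, 79.5 and 102 CPM in CRISPR lines (log2 difference -0.69, SE 0.13, adjusted p = 0.0107). The Hd3a call was kept without any single line or library, and all OE libraries lay below all CRISPR libraries. COL4 (OS02G0610500), a CONSTANS-like gene, was at 56.3, 71.4 and 43.5 CPM in OE and 85.8, 96 and 89.2 CPM in CRISPR lines (log2 difference -0.66, SE 0.16, adjusted p = 0.0285). COL4 lost its call without OE-2, C-13, C-14 or C-16 and without OE-3 replicate 2 or 3 (log2 -0.62 to -0.70). Ehd1 (OS10G0463400), an activator of Hd3a, was at 6.64, 6.05 and 5.57 CPM in OE and 7.18, 4.6 and 5.42 CPM in CRISPR lines and not called (log2 difference 0.09, SE 0.18, adjusted p = 0.776). The floral identity gene MADS14 (OS03G0752800), which is turned on downstream of florigen, was at 122, 134 and 154 CPM in OE and 137, 148 and 145 CPM in CRISPR lines and not called (log2 difference -0.07, SE 0.10, adjusted p = 0.661). Of 13 clock genes 1 was called lower and 0 higher (median -0.09), or 7.69%, below the 17.4% of all genes. It was the barely expressed FKF1 (OS11G0547000) at 0.248, 0.15 and 0.45 CPM in OE and 0.909, 1.1 and 1.02 CPM in CRISPR lines (log2 difference -1.81, SE 0.36, adjusted p = 0.0142). FKF1 passed the filter through the CRISPR lines alone and lost its call without OE-2, C-14 or C-16 (log2 -1.71 to -1.80). The morning gene LHY (OS08G0157600) was at 2973, 3036 and 3401 CPM in OE and 3499, 3167 and 3372 CPM in CRISPR lines (log2 difference -0.09, SE 0.10, adjusted p = 0.573). GI (OS01G0182600) was not called either, although its OE libraries, at 339 to 495 CPM, all lay below its CRISPR libraries, at 498 to 624 CPM.

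Aquaporins, the water channels of plasma and vacuolar membranes, were higher in the OE lines in 6 of 13 tested members and lower in 0 (median 0.50), where 9.71% and 7.65% of all genes were. PIP1;3 (OS02G0823100) was at 521, 489.7 and 419 CPM in OE and 219, 241 and 233 CPM in CRISPR lines (log2 difference 1.04, SE 0.10, adjusted p = 0.00108) and was called in each alternative. PIP2;1 (OS07G0448800) was at 1197, 1390.3 and 1021 CPM in OE and 694, 726 and 690.5 CPM in CRISPR lines (log2 difference 0.77, SE 0.12, adjusted p = 0.00601). PIP1;2 (OS04G0559700) was at 102, 108 and 75.3 CPM in OE and 47, 61.8 and 53.6 CPM in CRISPR lines (log2 difference 0.81, SE 0.15, adjusted p = 0.0111). For PIP2;2 (OS02G0629200) the values were 101, 114 and 82.5 CPM in OE and 68.6, 71.2 and 70.8 CPM in CRISPR lines (log2 difference 0.5, SE 0.11, adjusted p = 0.0236). OE-4 was the lowest OE line in all 4 genes and still lay above every CRISPR line. PIP2;1 kept its call without any single line, whereas PIP1;2 lost it without C-16 (log2 0.81) and PIP2;2 without OE-2, OE-3, C-13, C-14 or C-16 (log2 0.36 to 0.51). The list count was 3 without OE-2, C-13 or C-14, 2 without C-16, 4 without OE-3 and 7 without OE-4. PIP1;1 (OS02G0666200) was at 1354, 1621 and 1289.9 CPM in OE and 1256, 1153 and 1214 CPM in CRISPR lines and not called (log2 difference 0.24, SE 0.11, adjusted p = 0.178).

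Antioxidant enzymes had 4 of 15 tested members called higher and 1 lower (median 0.25), or 33.3% against 17.4% of all genes. The 4 were 1 without any one of OE-2, OE-3, C-13, C-14 or C-16. They were 2 without OE-3 replicate 2 or 3, C-13 replicate 1, C-14 replicate 1 or 3 or C-16 replicate 3. CATA (OS02G0115700), a catalase, was at 86.6, 163 and 99.4 CPM in OE and 45.2, 52.1 and 35.4 CPM in CRISPR lines (log2 difference 1.39, SE 0.24, adjusted p = 0.00859), with OE-3 highest, and APX8 (OS02G0553200), a thylakoid ascorbate peroxidase, was lower at 359, 399 and 315 CPM in OE and 506, 593 and 608 CPM in CRISPR lines (log2 difference -0.67, SE 0.12, adjusted p = 0.00849). Both kept their calls without any single line. The chloroplast superoxide dismutase FSD2 (OS06G0143000) was at 44.6, 44.7 and 36.3 CPM in OE and 33.2, 25.7 and 31.1 CPM in CRISPR lines (log2 difference 0.48, SE 0.12, adjusted p = 0.0327). FSD2 lost its call without OE-2, OE-3, C-13, C-14 or C-16 and without C-13 replicate 1 (log2 0.38 to 0.56). CATB (OS06G0727200) was at 56.8, 58.2 and 62.8 CPM in OE and 48.7, 48 and 51.1 CPM in CRISPR lines (log2 difference 0.27, SE 0.07, adjusted p = 0.0411). CATB lost its call without any one of the 6 lines and without OE-2 replicate 3, OE-3 replicate 2 or 3, C-14 replicate 1 or 3 or C-16 replicate 1 or 3 (log2 0.22 to 0.30). In abscisic acid and drought response, 3 of 12 tested members were called lower and 1 higher (median -0.21), or 33.3% against 17.4% of all genes. The 3 were 1 without C-16, OE-2 replicate 3 or C-16 replicate 1 and 5 without OE-3 replicate 1. DREB1A (OS09G0522200), a cold-response factor, was at 0.269, 0.451 and 0.469 CPM in OE and 1, 1.32 and 1.23 CPM in CRISPR lines (log2 difference -1.57, SE 0.27, adjusted p = 0.00887) and stayed called without any line. P5CS1 (OS05G0455500), of proline synthesis, was at 74.6, 64 and 69.8 CPM in OE and 89.1, 89.5 and 83 CPM in CRISPR lines (log2 difference -0.33, SE 0.08, adjusted p = 0.0304) and bZIP23 (OS02G0766700) at 46.1, 44.8 and 43.7 CPM in OE and 35.7, 37.5 and 36.6 CPM in CRISPR lines (log2 difference 0.29, SE 0.07, adjusted p = 0.0225). P5CS1 lost its call without C-13, C-14 or C-16 and without OE-2 replicate 3, OE-3 replicate 3, C-13 replicate 3, C-14 replicate 3 or C-16 replicate 1 (log2 -0.26 to -0.38). bZIP23 lost it without OE-2, C-13, C-14 or C-16 and without OE-3 replicate 1 (log2 0.24 to 0.31). SalT (OS01G0348900), a lectin induced by salt, was near 0 in all lines except C-16 at 0.062, 0.15 and 0.0187 CPM in OE and 0.284, 0.366 and 3 CPM in CRISPR lines. It is the third of the members called lower, but with 3, 7 and 1 counts in the OE lines against 15, 18 and 142 it passed the filter through the CRISPR lines alone. Of 9 tested heat stress genes 1 was called (11.1%, below the 17.4% of all genes). It was HSFA2a (OS03G0745000) at 2.29, 2.94 and 1.18 CPM in OE and 0.152, 0.549 and 0.465 CPM in CRISPR lines (log2 difference 2.46, SE 0.48, adjusted p = 0.0126). Its libraries overlapped widely at 0.168 to 7.37 CPM (median 0.655) in the OE libraries and 0.0528 to 0.884 CPM (median 0.32) in the CRISPR libraries. HSFA2a passed the filter through the OE lines alone and lost its call without OE-2 replicate 1, OE-3 replicate 2 or OE-4 replicate 2 (log2 1.84 to 2.28).

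The genes with the widest gap between line values but no symbol are given by identifier, since the count table does not pair identifiers with names. OS07G0129300 was at 33.5, 9.49 and 8.6 CPM in OE and 0.474, 0.264 and 0.402 CPM in CRISPR lines (log2 difference 5.48, SE 0.65, adjusted p = 0.00238) and OS10G0537800 at 5.15, 5.58 and 6.79 CPM in OE and 0.341, 0.386 and 0.212 CPM in CRISPR lines (log2 difference 4.21, SE 0.24, adjusted p = 0.000179), both higher in the OE lines. OS04G0345400 was lower at 0.703, 0.751 and 1.22 CPM in OE and 7.84, 9.58 and 7.74 CPM in CRISPR lines (log2 difference -3.22, SE 0.23, adjusted p = 0.000395), and these 3 were called in each alternative that tested them. OS03G0299700 was at 0.0207, 0 and 0.0187 CPM in OE and 8.19, 0.305 and 18.9 CPM in CRISPR lines, high in C-13 and C-16 and near 0 in the other 4 lines. With 1, 0 and 1 counts in the OE lines it passed the filter through the CRISPR lines alone, and it differed among the CRISPR lines.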

How the data were processed

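RNA of rice leaves had been sequenced, and the authors deposited raw read counts per gene for 91080 identifiers, of which 56658 had 0 counts in the 18 libraries used. Per the submitters' processing notes, the build was IRGSP-1.0 and the tools included STAR 2.5.3a, Trim Galore, FastQC and DESeq2, whose roles are not described. How reads were counted, with or without strand and with several matches, is not given in the sources used here. Values of close paralogs and of overlapping or antisense genes are therefore uncertain. The 3 wild-type columns were not used.

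Counts were summed per line, filtered with filterByExpr by genotype (minimum count 10), scaled by TMM and compared as 3 lines against 3 by edgeR's quasi-likelihood method (edgeR 4.0.16, R 4.3.3). Adjusted p-values follow Benjamini and Hochberg over 22553 genes, with a threshold of 0.05. Fold differences are OE over CRISPR, and standard errors (SE) are the absolute log2 difference over the square root of F. The p-values set the genotype difference against the spread between these lines. That spread was taken as one for both genotypes and drawn toward that of other genes, although the OE lines differed more among themselves. List levels by line are medians of log2(CPM + 0.01) relative to the mean of the 6 lines. Library pairs of one line differed by 6.01 to 26.3 times the variance of counting error, so none was counted as a duplicate. DESeq2 1.42.0 and limma 3.58.1 served as alternatives.

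The members and the 28 lists were chosen with earlier results of these data known. The count table holds no gene names. Symbols of 326 loci were paired from general knowledge and checked against the RefSeq table of the assembly ASM3414082v1 by chromosome and order. Of 191 symbols found there, 183 agreed on both within the margin used, 2 were out of order and 6 lay on another chromosome, and 135 symbols were not in that table. Members in doubt were counted but not named. A member of the heading-date list that the rule names is not reported here. The rule for named genes took NRP1, up to 12 called list members each way with at least 5 CPM and the widest gap between line values, up to 4 called members per list by adjusted p (or the member with the smallest p), and 2 identifiers each way without a symbol. CRD1, CAO1, CHLG, GLK2, NADH-GOGAT1 and the members given as not called were named after their values were seen. Alternatives were other scalings, filters and tests, single libraries with or without a replicate block, single replicate numbers, and leaving out each line or library.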

Additional observations from a re-analysis of the deposited data

How the results depend on the processing

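No gene called in the main comparison was called in the other direction under any alternative tried. The 3916 calls (2191 higher, 1725 lower) moved most under these alternatives. A minimum absolute log2 difference of 1 left 1116 (683 higher, 433 lower). Single libraries, with the spread between libraries as error, gave 9157 (4795 and 4362), and 9134 (4777 and 4357) with a replicate block. Replicate 1 libraries alone gave 917 (560 and 357), replicate 2 libraries 428 (248 and 180), and replicate 3 libraries 2547 (1266 and 1281). The replicate numbers are not shown to pair libraries. Of 45 same-number library pairs from different lines, 8 had deviations correlated above 0.1 (median 0.026, range -0.364 to 0.280). Of 90 such pairs with different numbers, 17 did (median -0.004, range -0.298 to 0.331). Leaving out a line or library gave 1545 to 5234 calls, with 876 to 2796 higher and 669 to 2438 lower. Lower calls outnumbered higher ones without OE-3 (1695 higher, 1897 lower) and with replicate 3 libraries alone. Among the OE lines 910 to 3701 genes differed when a library was left out, and among the CRISPR lines 67 to 128. Of 79 called genes picked by the naming rule or added to it, 36 kept the call without any single line and 52 without any single library. The log2 difference of CPS4 was -0.058 with replicate 2 libraries alone, and the cause was not tested. With a pair of lines left in one genotype the test assumes one spread for all lines.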
